A study of Mus musculus with 12 samples.

Results

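Long intergenic noncoding RNA probes made up 4460 of the 56605 noncontrol probes on the mouse array used in this study. They were taken by name alone, as every probe whose name begins with A_30_P, so no measured value entered the choice. Each is 60 bases long and reads 1 strand of a stretch of the genome, which the array annotation gives in build mm9 with no gene symbol. The 4460 probes covered 3240 stretches, called regions here, with a length from 62 to 538251 bases and a median of 7224 bases. Forward strands were read by 2231 probes and reverse strands by 2229, and 832 regions had a probe on both strands. The probes lay on 20 chromosomes, with 344 on chromosome 1, 176 on the X chromosome and none on the Y chromosome.

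By the array's own positions, some regions also held a probe with a gene symbol. Some of these symbols name long noncoding RNAs, such as Neat1 and Tug1, and coding and noncoding symbols were not counted apart. A probe with a gene symbol lay inside the region on the same strand for 553 of the 4460 probes and on the opposite strand for 545, and 3466 had neither.

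RNA from the hypothalamus of male C57BL/6 mice was measured in 12 samples, 1 per array and 3 per group. WT mice were wild-type littermates and KO mice were homozygous for a 20 bp deletion in Asmt, which encodes the enzyme of the last step of melatonin synthesis. Exercised WT and exercised KO (KE) mice had the same genotypes and were trained to swim, whereas WT and KO mice were not. The deletion was made with Cas9 in zygotes, the line was backcrossed for 3 generations, and the labels give an age of 6 to 7 weeks for every mouse, which by the methods is the age at the start of training and not at sampling. The whole hypothalamus was taken, so fewer cells of a type and less RNA per cell cannot be told apart in any value below. The scanner output places the arrays on 2 slides. WT replicates 1 to 3 and KO replicates 1 and 2 were on slide 1. KO replicate 3 and all exercised mice were on slide 2. Swimming and slide can therefore be separated only through the KO arrays, and each KO array is given apart where it matters.

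The arrays were checked against marker genes of the tissue. All 12 hypothalamic markers had a probe, 11 of them were well above background on all 12 arrays, and their mean log2 signal lay between 12.87 and 13.31. Markers of neighbouring tissues varied by array, with choroid plexus between 7.99 and 9.25, striatum between 8.84 and 10.13 and cortex and thalamus between 7.13 and 8.70, and their part in the results was not tested. The Asmt probe was not well above background on any of the 12 arrays, which leaves the genotype unchecked by these data.

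Long noncoding RNAs are transcripts without an open reading frame of known use. Many are spliced and polyadenylated like messenger RNAs but are less abundant, stay in the nucleus, and are made in few cell types. Some have known roles: Xist coats the inactive X chromosome in females, Neat1 holds nuclear paraspeckles together, the imprinted Rian and Mirg are transcribed from the maternal copy of chromosome 12 in brain, and the Snhg genes carry small nucleolar RNAs in their introns. Most transcripts behind the A_30_P probes have no assigned role, so the results are given by probe and by region.

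The sequence of a probe sets which RNA it can capture, and 3 kinds of probe are shown. The first kind shares a stretch with the probe of a protein-coding gene, which is in capitals. A_30_P01030669 has 28 bases of a probe for Rps29, a protein of the small ribosomal subunit, and A_30_P01026296 and A_30_P01027478, annotated on chromosomes 14 and 5, carry the same 26 bases of a probe for Ifitm3, an interferon-induced antiviral membrane protein.
A_30_P01030669: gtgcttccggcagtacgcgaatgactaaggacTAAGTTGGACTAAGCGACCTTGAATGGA
A_30_P01026296: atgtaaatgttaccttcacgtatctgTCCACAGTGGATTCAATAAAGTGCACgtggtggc
A_30_P01027478: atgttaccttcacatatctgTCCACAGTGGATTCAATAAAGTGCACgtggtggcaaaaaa
The next kind is among the brightest probes and rich in G and C, and 1 is shown with its longest unbroken run of G and C letters in capitals.
A_30_P01031448: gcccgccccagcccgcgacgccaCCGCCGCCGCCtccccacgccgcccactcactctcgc
The last kind carries the differences between arrays and groups described further on, and capitals mark a tandem repeat in the 1 probe that has one.
A_30_P01032549: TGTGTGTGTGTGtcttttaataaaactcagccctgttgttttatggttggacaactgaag
A_30_P01027222: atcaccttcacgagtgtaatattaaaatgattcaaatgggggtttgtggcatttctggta
A_30_P01025310: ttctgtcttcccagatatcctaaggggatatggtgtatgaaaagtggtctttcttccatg
A_30_P01019416: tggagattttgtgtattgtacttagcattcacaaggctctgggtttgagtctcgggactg
A_30_P01032597: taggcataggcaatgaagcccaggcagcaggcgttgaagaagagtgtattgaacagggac

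Shared stretches of at least 25 bases were searched for against all other noncontrol probes. They were found in the same orientation for 20 A_30_P probes and as the complement for 46. Of the 20 in the same orientation, 18 were well above background on all 12 arrays, and of the 46 complements 27 were. A_30_P01026296 had a log2 signal of 9.45, 9.5 and 9.4 in WT and 9.27, 9.97 and 9.22 in KO mice, and A_30_P01027478 had 9.37, 9.38 and 9.23 in WT and 9.29, 9.78 and 9.32 in KO mice. Both were highest in KO replicate 2, as was the Ifitm3 probe itself, at 10.74 against 10.19 to 10.58 on the other 11 arrays. How much of the signal came from RNA of the named genes was not tested.

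Fewer A_30_P probes than other probes were detected in hypothalamus. Detection is the share of probes that the scanner software called well above the local background. It was 45.7% ± 5.6 (SD, n = 3) on the WT arrays, 46.7% ± 1.4 (SD, n = 3) on the KO arrays, 50.5% ± 3.6 (SD, n = 3) on those of exercised WT and 47.8% ± 2.3 (SD, n = 3) on the KE arrays. The 3 WT arrays gave 52.1%, 42.1% and 42.8%, the KO arrays 45.4%, 46.5% and 48.2%, the exercised WT arrays 46.3%, 52.8% and 52.3%, and the KE arrays 45.2%, 48.5% and 49.6%. The groups overlapped, and among the KO arrays replicate 3 on slide 2 was the highest. All other noncontrol probes gave 61.3% to 67.6% per array. Within these, probes for messenger RNAs with a RefSeq record gave 72.5% to 77.7% and other noncoding RefSeq probes 35.4% to 42.4%, so that the A_30_P probes lay between these 2 classes on every array.

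**Figure D1:**
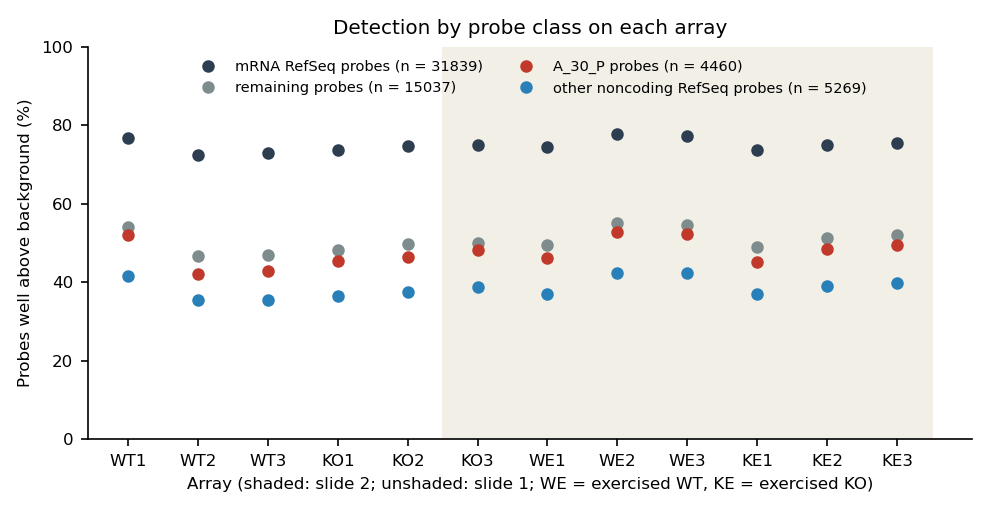
Percent of probes well above background on each of the 12 arrays for 4 classes of probe, with the arrays of slide 2 shaded. The A_30_P probes (red) lie between 42.1% and 52.8%, above the other noncoding RefSeq probes and below the mRNA probes on every array.

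Counted over the whole series, 1681 A_30_P probes (37.7%) were well above background on all 12 arrays, 1185 (26.6%) on some and 1594 (35.7%) on none. The corresponding shares of all other probes were 58.3% on all arrays and 24.9% on none, and those of the remaining class within them 42.5% and 34.7%. The median normalized log2 signal of the A_30_P probes was 3.94 to 4.04 per array, against 6.08 to 6.11 for all other probes, a difference of -2.09 ± 0.04 (SD, n = 12 arrays). The remaining class had a median of 4.21 to 4.33. Among probes well above background everywhere, the WT signal had a median of 6.95 for A_30_P probes and 8.99 for the others, and 4.52% of the former against 18.6% of the latter exceeded 12. Brightness also depends on how well a probe binds, so these are distributions of signal and not of RNA abundance.

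Detection differed with the base composition of the probe. The A_30_P probes had 45.2% G and C on average and the other probes 42.2%. Of the A_30_P probes with under 30% G and C, 17.5% were well above background on all arrays, and the share was 36.2% between 40% and 45% and 50.3% at 55% or more. Between 45% and 50% it was 32.7%, so the share did not climb steadily. All other noncontrol probes also had a low share under 30% G and C, at 27.4%, and 64.8% at 55% or more, whereas mRNA probes lay between 60.1% and 73.0% in every such class. The 10 brightest A_30_P probes in WT mice included A_30_P01031448 with 83.3% and A_30_P01031264 with 78.3% G and C.

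The brightest probe was A_30_P01022075 (chr17:17481706-17482457, reverse strand). Its log2 signal was 16.50, 16.36 and 16.40 on the WT arrays, 16.47, 16.52 and 16.36 on the KO arrays, 16.34, 16.45 and 16.44 on those of exercised WT and 16.32, 16.40 and 16.37 on the KE arrays. All 4 groups overlapped. A_30_P01031448 (chr14:78924115-78938125, forward strand) was between 15.93 and 16.35, and A_30_P01030669, which shares sequence with Rps29, was between 15.77 and 16.21. A_30_P01021251 and A_30_P01028302 read the same region (chr14:77006215-77063293, reverse strand) and were both among the 10, at 14.88 to 15.24 and 14.86 to 15.10. No named probe was saturated on any array.

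Of the 832 regions with a probe on each strand, both strands were well above background on all arrays in 159 (19.1%), 1 strand only in 379 (45.6%) and neither in 294 (35.3%). Counting detection on at least 1 array, both strands were detected in 412, 1 strand in 328 and neither in 92. Several probes of 1 strand of a region formed 487 pairs, of which both were detected on all arrays in 116, 1 in 137 and neither in 234.

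The 3 KO arrays did not agree at many A_30_P probes. Over the 1681 probes detected everywhere, 142 (8.45%) differed at least 2-fold between KO replicate 3 on slide 2 and the mean of KO replicates 1 and 2 on slide 1. Of these 133 were higher and 9 lower in KO replicate 3. The same count was 2.9% of all other probes, 1.69% of mRNA probes and 4.44% of other noncoding RefSeq probes, and no test was made between these shares. KO replicates 1 and 2 differed at least 2-fold from each other at 12 A_30_P probes (0.714%). On the other 9 arrays, between 0.238% and 0.773% of the A_30_P probes lay at least 2-fold from the rest of the group.

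**Figure D2:**
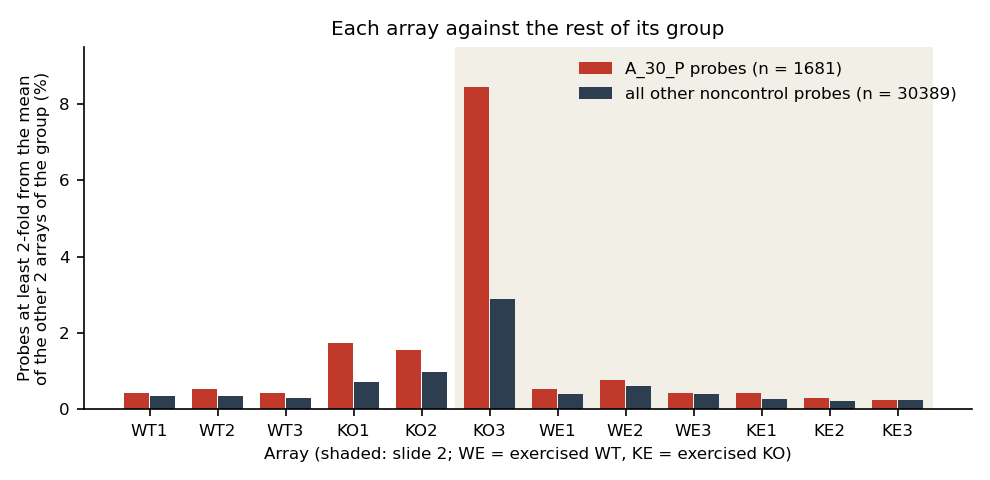
Percent of probes well above background on all arrays whose signal on the named array was at least 2-fold from the mean of the other 2 arrays of its group, for A_30_P probes (red) and all other noncontrol probes (dark), with slide 2 shaded. KO replicate 3 stands at 8.45% of A_30_P probes and 2.9% of the others, and no other array exceeds 1.73%.

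A_30_P01032549 (chr17:71242333-71273533, forward strand), whose probe opens with the TG repeat shown above, had the largest such difference. It was at 5.85 and 5.73 in KO replicates 1 and 2 and at 8.78 in KO replicate 3. WT mice had 5.40, 6.37 and 6.04, exercised WT mice 8.19, 7.92 and 7.63, and KE mice 8.50, 8.21 and 7.76. Every array of slide 2 was above every array of slide 1, whatever the genotype or training. A_30_P01027726 on chromosome 8 and A_30_P01018721 on chromosome 3 were 2.87 and 2.83 higher in KO replicate 3 on the log2 scale, also without overlap of the slides.

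The slides were entirely apart for 117 of the 133 probes that were higher in KO replicate 3. The 133 were chosen on the KO arrays, so part of that separation follows from the choice. Exercised WT and WT mice, which are other arrays on the same slides, differed in the same direction at 130 of the 133, by a median of 0.84 on the log2 scale, with 44 at 1 or more. Of the 9 probes lower in KO replicate 3, 8 were lower in exercised WT than in WT mice. The median over the 9 was -0.32, and the slides were entirely apart for 3. These counts of direction and separation were not made for all other probes, so they are not shown to be particular to A_30_P probes. The share past 2-fold was 6.83% of A_30_P probes with a mean log2 signal under 6 and 9.46% (7 of 74) at 12 or more, against 3.39% and 1.76% of other probes at those levels. Probes past 2-fold were found at every level of signal.

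**Figure D3:**
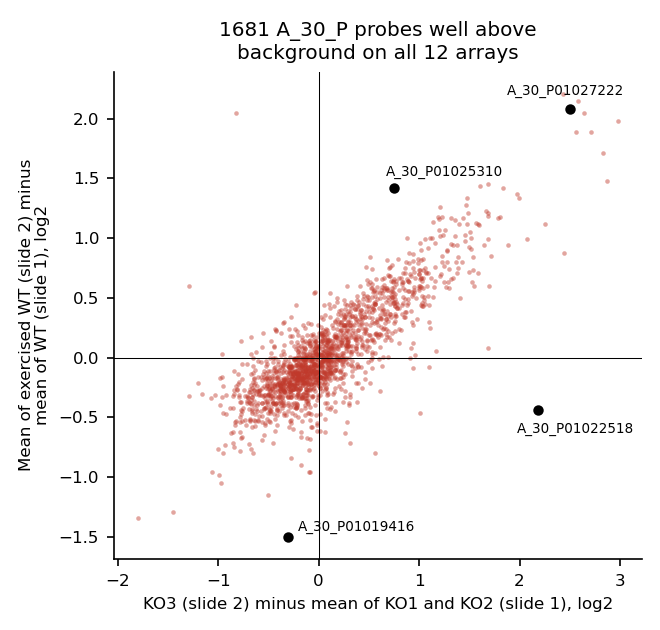
Each point is 1 of the 1681 A_30_P probes well above background on all arrays; the x axis gives KO replicate 3 minus the mean of KO replicates 1 and 2, and the y axis the mean of exercised WT minus the mean of WT, both in log2 units and with no array in common. Points run from lower left to upper right. Of the 133 probes at 1 or more on the x axis, 130 were above 0 on the y axis, 44 of them at 1 or more. The direction was thus shared more often than the size. A_30_P01025310, A_30_P01019416 and A_30_P01022518 lie off that run of points.

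Probes next to the A_30_P probes were read as well. Within 500 bases on the same strand, 48 A_30_P probes, whatever their own difference, had another probe detected on all arrays. Of the 48, 4 were past 2-fold in KO replicate 3. None of the probes beside those 4 was, with differences from -0.41 to -0.17. At A_30_P01026891 the difference was 0.82, and that of a 3830408C21Rik probe was 0.71. All 60 bases of these probes are the same, so they are a repeat measurement and not a neighbour's result. Differences were not shared at A_30_P01029367, at -0.03, where another 3830408C21Rik probe 1 base away had 0.70. These probes have 55 bases in common. A_30_P01023043 lies in the region of Snhg18 (chr15:32167516-32174417, reverse strand), 57 bases from the Snhg18 probe. It had 5.43, 5.36 and 4.89 on the WT arrays, 5.35, 5.22 and 6.90 on the KO arrays, 6.62, 6.72 and 6.66 on those of exercised WT and 6.78, 6.70 and 6.70 on the KE arrays. The Snhg18 probe had 9.93, 9.81 and 9.74 on the WT arrays, 9.86, 9.84 and 9.54 on the KO arrays, 9.48, 9.57 and 9.60 on those of exercised WT and 9.37, 9.45 and 9.45 on the KE arrays. The A_30_P probe was thus higher on every array of slide 2 and the Snhg18 probe lower.

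The letters of the probes were searched as well. AATAAA, the usual polyadenylation signal, stood on the probe strand in 3.99% of all A_30_P probes, 5.35% of those detected everywhere and 9.02% (12 of 133) of those higher in KO replicate 3, and in 10.3% of all other probes. Its reverse complement TTTATT stood in 2.76% of the A_30_P probes and 3.94% of the others. A tandem repeat of at least 12 bases was found in 1.21% of A_30_P probes, 2.56% of those detected everywhere and 5.26% (7 of 133) of those higher in KO replicate 3, and in 1.26% of all other probes. These are descriptions of letters, with no test.

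For the comparisons between groups, the test took probes that every array of some group (3 of 3) detected well above background, which kept 2087 (46.8%) of the A_30_P probes and 63.6% of the others. The methods screened for a fold change of 2 or more either way and an unadjusted p no higher than 0.05, and this criterion was applied to values from limma, a linear model with pooled variance. After Benjamini-Hochberg adjustment over all 35229 tested probes, 0 A_30_P probes passed in any of the comparisons, against 0.0199% of all tested probes for KE versus KO and 0 probes elsewhere. Without adjustment and at any fold, limma's p was under 0.05 for 158 A_30_P probes when KO was compared with WT, which is 7.57% of those tested against 5.36% of all probes tested. The count was 420 when KE was compared with KO (20.1% against 20.4%) and 699 when exercised WT was compared with WT (33.5% against 26.8%). It was 136 between KE and exercised WT (6.52% against 6.38%) and 192 in the interaction of swimming and genotype (9.2% against 7.68%). For exercised WT against WT the count of adjusted calls depended on the variance used. The methods' test gave 142 A_30_P probes an adjusted p under 0.05, which is 6.8% of those tested against 4.53% of all probes tested. A limma fit on these 2 groups alone gave 346, which is 16.6% against 8.42%.

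The comparison of KO with WT mice asks what Asmt knockout changed at rest, and few A_30_P probes differed. In KO versus WT, 7 A_30_P probes met the criterion with higher and 3 with lower signal in KO mice, 0.335% and 0.144% of those tested, against 0.159% and 0.071% of all tested probes. The median log2 fold change was 0.02 over the A_30_P probes and -0.01 over the others. None of the 10 had every array of both groups well above background (0 probes). A fit with the slide as a block uses KO replicates 1 and 2 only for this comparison, and 1 of the 7 and 2 of the 3 remained at the criterion, namely A_30_P01020028, A_30_P01019414 and A_30_P01026618. The balance turned, since in that fit 1 A_30_P probe was higher and 6 lower in KO mice at the criterion. The other probes went from 49 higher and 22 lower to 40 and 42.

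A_30_P01019131 (chr17:21752466-21793451, forward strand) is the lower probe named for a group below background. It was at 5.25, 4.95 and 5.78 on the WT arrays, 1.84, 4.16 and 1.82 on the KO arrays, 1.81, 1.81 and 1.81 on those of exercised WT and 3.14, 1.85 and 7.51 on the KE arrays. All 3 WT arrays and 1 KE array were well above background and no other array was. WT mice were at least 2.1-fold higher than KO mice and at least 2.75-fold higher than exercised WT mice, with adjusted p of 0.86 and 0.12 from limma. The probe passed the detection filter only through WT mice, the group where it was high, so these differences follow in part from that choice. The 3 KE arrays spread over more than the distance between the other groups.

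The comparison of swimming with rest in wild-type mice gave more A_30_P probes at the criterion than the other 4 comparisons. In exercised WT versus WT, 85 were higher and 9 lower after swimming, 4.07% and 0.431% of those tested, against 2.02% and 0.119% of all tested probes. The median log2 fold change over all tested A_30_P probes was -0.01. Of the 94, 50 were well above background on every array of both groups, 44 of them higher and 6 lower. The groups lie on different slides, and the slides were entirely apart for 75 of the 85 higher probes. The 85 were chosen on the WT and exercised WT arrays, so part of that separation follows from the choice. In the fit with the slide as a block, the median log2 fold change of the 85 went from 1.29 to -0.28, 18 kept their sign and 0 met the criterion, whereas of the 9 lower probes 6 kept their sign and 1 met it. The slide term in that fit rests on 1 KO array against 2, so it is itself known with little precision.

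A_30_P01027222 (chr5:105063625-105077700, reverse strand) was among the 3 largest rises at probes well above background on every array of both groups. Its log2 signal was 9.65, 9.74 and 9.63 in WT and 11.80, 11.80 and 11.65 in exercised WT mice, a log2 fold change of 2.08 with a standard error of 0.53 and an adjusted p of 0.091 from limma. KO mice had 9.56 and 9.46 on slide 1 and 12.01 on slide 2, and KE mice had 11.77, 11.67 and 11.78. KO replicate 3, a sample without swimming, was above all 6 arrays of exercised mice, and with the slide as a block the log2 fold change was -0.42. A_30_P01029029 (chr7:140081171-140123058, reverse strand) and A_30_P01025509 (chr10:74325583-74396665, reverse strand) had log2 fold changes of 2.21 and 2.15, and of -0.22 and -0.42 with the slide as a block.

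Among the falls, A_30_P01019416 (chr1:138518674-138521227, reverse strand) was the 1 probe that met the criterion with and without the slide in this comparison. It was at 6.73, 6.92 and 7.17 in WT and 5.24, 5.53 and 5.53 in exercised WT mice, and at 6.89, 6.84 and 6.55 in KO and 5.07, 6.04 and 5.78 in KE mice. Every array of exercised mice was below every array of mice at rest, KO replicate 3 included. The log2 fold change was -1.5 with a standard error of 0.22 and an adjusted p of 0.091 in wild-type mice, and -1.13 with a standard error of 0.22 and an adjusted p of 0.11 in KO mice from limma. With the slide as a block limma gave -1.19 (standard error 0.4, adjusted p of 0.78) in wild-type mice and -0.92 (standard error 0.32, adjusted p of 0.45) in KO mice. The nearest probe with a gene symbol, 7688 bases away on the opposite strand, is for Zfp281, a zinc finger transcription factor. A_30_P01024198 (chr14:30758342-30759669, reverse strand) and A_30_P01032874 (chr13:28537223-28539860, reverse strand) were lower in exercised WT mice with log2 fold changes of -1.34 and -1.29, and had 0.45 and 0.16 with the slide as a block.

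Swimming in KO mice was tested with 1 of the 3 resting arrays on the slide of the exercised mice. In KE versus KO, 29 A_30_P probes were higher and 8 lower, 1.39% and 0.383% of those tested, against 1.12% and 0.108% of all tested probes. Adding the slide as a block, 14 of the 29 kept their sign and 1 remained at the criterion, and all 8 lower probes kept their sign and 5 remained. Over all A_30_P probes at the criterion that fit turned the balance to 4 higher (0.192%) and 20 lower (0.958%), against 0.214% and 0.223% of the other probes. The methods' test gave 2 higher (0.0958%) and 5 lower (0.24%), against 0.106% and 0.0422%. Leaving out KO replicate 1 or 2 also turned the A_30_P balance, to 6 higher and 12 or 11 lower. The other probes kept theirs, at 81 higher and 36 lower or 73 and 36. Without KO replicate 3, 132 A_30_P probes were higher and 12 lower. In that fit 572 A_30_P probes (27.4%) had an adjusted p under 0.05 from limma, as did 23.9% of the other probes. Between exercised WT and WT, 560 (26.8%) had one without KO replicate 3, which is not in either group but enters the pooled variance, as did 18.4% of the others.

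A_30_P01025310 (chr2:108456668-108532418, reverse strand) was the 1 rise that remained. Its signal was 8.56, 8.51 and 9.29 in KO and 10.48, 10.35 and 10.24 in KE mice, and 8.35, 9.17 and 8.89 in WT and 10.42, 10.33 and 9.93 in exercised WT mice. Every array of exercised mice was above every array of mice at rest, and KO replicate 3 was the highest of the latter. The log2 fold change was 1.57 with a standard error of 0.25 and an adjusted p of 0.083 in KO mice by limma; the slide block brought it to 1.07. In wild-type mice it was 1.42, and 0.67 with the slide as a block.

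A_30_P01032597 (chr14:55433382-55452757, forward strand) was lower after swimming in KO mice. KO mice had 6.36, 6.43 and 6.66 and KE mice 4.86, 6.25 and 5.22, a log2 fold change of -1.04, or -1.22 with the slide as a block. WT mice had 6.55, 6.18 and 6.32 and exercised WT mice 6.03, 5.24 and 5.90. The KO and KE arrays did not overlap. A_30_P01026296, which shares sequence with Ifitm3, reads the other strand of the same region and was between 9.22 and 9.97 on all arrays, with overlapping groups.

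**Figure D4:**
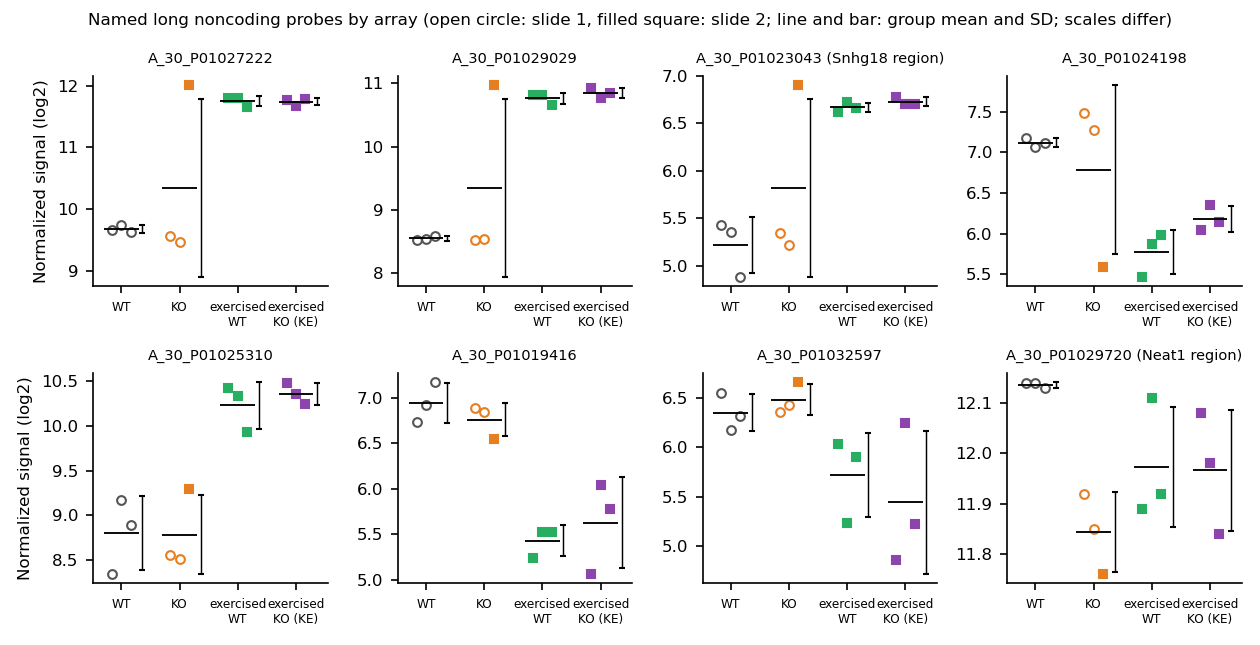
Normalized log2 signal of 8 A_30_P probes on each array (open circles slide 1, filled squares slide 2), with the group mean (line) and SD (bar) and a separate scale in each panel. In the upper row the filled KO replicate 3 lies with the exercised mice, whereas in the first 3 panels of the lower row it lies on the side of the mice at rest; the last panel shows the Neat1 region.

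When KE was compared with KO and the slide was a block, limma gave 3 A_30_P probes an adjusted p under 0.05. This is 0.144% of those tested against 0.0255% of all probes tested, and KO replicate 3 stood apart at each. A_30_P01022518 (chr14:65431652-65437902, reverse strand) had 5.03 and 5.24 in KO replicates 1 and 2, 7.31 in KO replicate 3, and 4.70 to 5.53 in all WT, exercised WT and KE mice. A_30_P01019627 (chrX:20389063-20389702, forward strand) had 7.19 in KO replicate 3 and 2.86 to 5.13 elsewhere, and A_30_P01031586 (chr5:110502650-110522475, forward strand) had 5.83 there and 1.85 to 4.56 elsewhere. KO replicate 3 was the highest array for each of the 3, so these calls rest on 1 array.

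KE and exercised WT mice share a slide, so the slide does not separate them. In KE versus exercised WT, 3 A_30_P probes were higher and 1 lower at the criterion, 0.144% and 0.0479% of those tested, against 0.114% and 0.133% of all tested probes. None of the 4 was well above background on all 6 arrays (0 probes). A_30_P01022754 (chr19:4994325-4994537, reverse strand) had 4.17, 3.56 and 3.31 in exercised WT and 6.23, 4.39 and 5.23 in KE mice, which put KE mice at least 2.67-fold above them. WT mice had 3.54, 5.02 and 4.31 and KO mice 3.70, 4.28 and 3.85. The nearest probe with a symbol is for Npas4, a transcription factor induced by neuronal activity, 9971 bases away. A_30_P01023198 (chr1:45800000-45834825, reverse strand) had 4.43, 4.55 and 3.82 in exercised WT and 3.03, 3.60 and 2.89 in KE mice, at least 1.06-fold lower in the latter. A_30_P01022754 passed the detection filter only through KE mice and A_30_P01023198 only through exercised WT mice, the higher group in each case. Both differences therefore follow in part from that choice.

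For the interaction, the change with swimming in KO mice minus that in wild-type mice, 9 A_30_P probes were above and 14 below 0 at the criterion, 0.431% and 0.671% of those tested, against 0.255% and 0.352% of all tested probes. All 23 kept their sign with the slide as a block, and 6 and 8 remained at the criterion. That fit gave 12 A_30_P probes above and 8 below 0 in all, the opposite balance, against 106 and 136 of the other probes. In 2 of the 23 all 4 groups were well above background on every array. A_30_P01027915 (chr19:54011403-54018978, forward strand) was 1 of these, at 4.41, 5.01 and 4.75 on the WT arrays, 4.85, 5.26 and 6.74 on the KO arrays, 6.10, 5.74 and 5.89 on those of exercised WT and 5.29, 5.35 and 5.43 on the KE arrays. KO replicate 3 was again the highest array.

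Known long noncoding RNAs were looked up from a list of 71 genes, of which 52 had a probe on the array. No A_30_P probe carries a symbol, so 31 A_30_P probes were taken whose region holds a same-strand probe of 20 of these genes. Of the 31, 21 were well above background on all 12 arrays, 3 on some and 7 on none. The median log2 fold change of the 21 was -0.03 between KO and WT, -0.04 between KE and KO, -0.16 between exercised WT and WT and -0.01 between KE and exercised WT. At the criterion, 1 of the 21 was higher and 0 lower in exercised WT versus WT, and 0 in the other comparisons. The 1 probe was A_30_P01023043 of the Snhg18 region, described above, with a log2 fold change of 1.44 and of -0.17 with the slide as a block.

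The brightest of these was A_30_P01029720 in the region of Neat1, the paraspeckle RNA (chr19:5842306-5845476, reverse strand). It had 12.14, 12.14 and 12.13 on the WT arrays, 11.92, 11.85 and 11.76 on the KO arrays, 11.89, 12.11 and 11.92 on those of exercised WT and 12.08, 11.98 and 11.84 on the KE arrays. The KO arrays lay below the WT arrays without overlap, and the log2 fold change was -0.30 with an adjusted p of 0.86 from limma. The 4 probes in the regions of Rian, the imprinted RNA that hosts small nucleolar RNAs, lie in 2 regions that also hold a Rian probe, and all 4 were detected on all arrays. Whether they read the Rian RNA itself was not tested. The A_30_P probes in the regions of Xist, its antisense partner Tsix, the imprinted H19 and Halr1 were not well above background on any array of these male mice, with log2 signals of 1.81 to 4.64. The regions themselves were not all undetected, since the H19 probe 681 bases away was well above background on all 12 arrays, at 5.07 to 6.33, and the Xist and Tsix probes were on 1 array each.

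**Figure D5:**
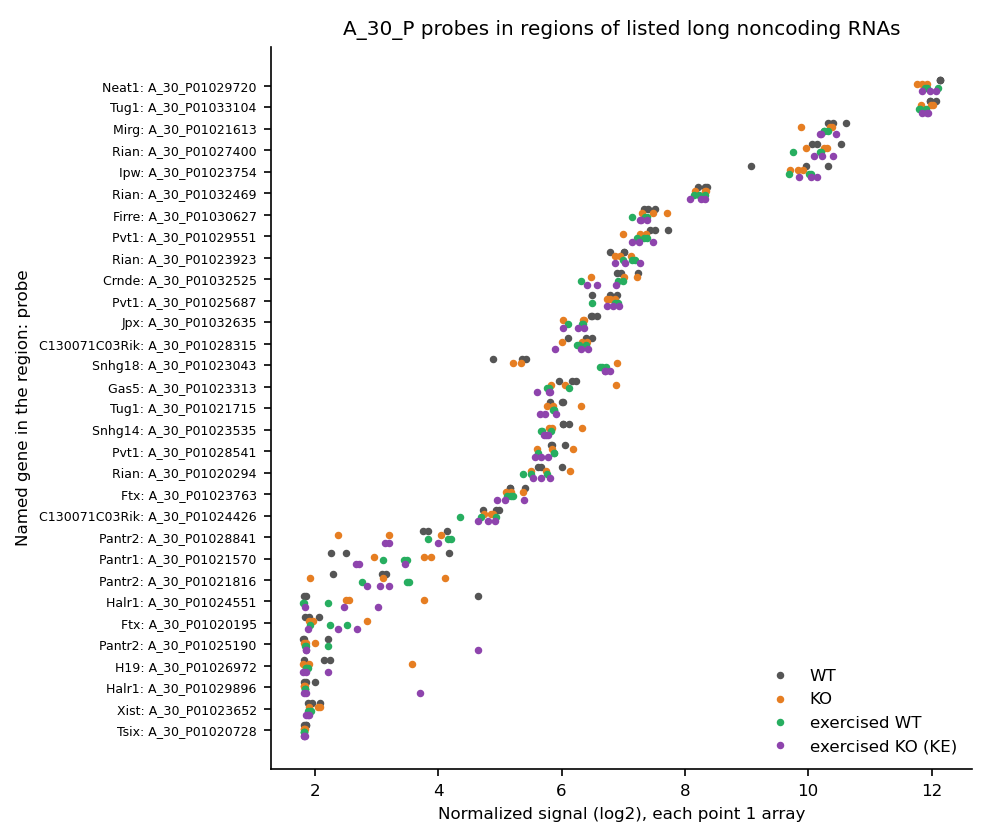
Normalized log2 signal on each array for the 31 A_30_P probes in regions of listed long noncoding RNAs, ordered by signal and coloured by group. The arrays of a probe lie close together for the 21 probes detected everywhere, and A_30_P01023043 of the Snhg18 region is the 1 with 2 separate clusters of arrays.

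Neighbouring genes were compared for the 1430 tested A_30_P probes with a tested probe of a named gene within 100000 bases. Beside A_30_P probes at the criterion, the neighbour also met it in 0 of 5 cases for KO against WT, 0 of 22 for KE against KO, 1 of 57 for exercised WT against WT and 0 of 3 for KE against exercised WT. Among all 1430 the neighbour met it in 0.49%, 0.49%, 1.47% and 0.49%. The 1 case was A_30_P01032372, at a log2 fold change of 2.42, with Tcf4, a transcription factor of neurons and glia, at 2.01. The neighbour had the sign of the A_30_P probe in 1 of 5, 12 of 22, 20 of 57 and 3 of 3 cases.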

How the data were processed

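Total RNA of hypothalamus was labelled with Cy3 and hybridized to Agilent SurePrint G3 Mouse GE V2.0 arrays. The authors deposited the intensity of each spot from Feature Extraction 10.7.1.1, which subtracts background per array. Their second deposited table holds log2 values quantile-normalized in GeneSpring. The authors' comparison tables hold fold changes and p-values of an unpaired test and were not used.

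Noncontrol spots were kept, outlier spots left out, the log2 processed signal quantile-normalized over 12 arrays and replicate spots of a probe averaged. Groups were taken from the sample labels and slides from the scanner output. A model of 4 group means was fitted over all 35229 tested probes (limma 3.58.1, R 4.3.3), with Benjamini-Hochberg adjustment. The number of arrays limits the precision, and p-values measure the spread between these samples, since the sources do not say whether a sample is 1 mouse. A group not well above background on any array was raised, per array, to that array's lowest detected signal if it lay below it, and only a bound was given.

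Named probes were, per comparison, the 3 largest rises and falls at the criterion that were well above background on all arrays compared, the largest of each with a group below background, those with an adjusted p under 0.05, the 10 brightest in WT, the 3 most and least in KO replicate 3, and those of the known list; the rest were chosen after their values were seen. Members, lists and tests were chosen with earlier results of these data known. The known list was read through same-strand probes inside a region. Alternatives were scaling by the 75th percentile, normexp (offset 50), the authors' table, other detection filters, the methods' test on the same values, a fit on the groups compared, outliers kept, slide or replicate as a block and leaving out each array. Those for the KO arrays apart and the strand pairs were added after the data were seen. On simulated data for KE versus KO, 187 of 200 changed probes among 35201 were recovered. The simulation used changes of a fixed size and no slide effect, so this recovery does not give the power on the real arrays. The result of 1 probe is not reported here.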

Additional observations from a re-analysis of the deposited data

Results flagged for a closer look

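At 2 A_30_P probes, picked for this pattern, every KE array lay below every KO array and every exercised WT array above every WT array. The interaction on the log2 scale was -1.07 for A_30_P01017845 (chr11:120097758-120098581, forward strand) and -1.29 for A_30_P01019383 (chr3:65729664-65731697, reverse strand). The limma fit gave both an adjusted p of 0.49 over all tested probes, so neither passed the correction. Both were dim and entered the test through 1 group, KO mice for the former and exercised WT mice for the latter, where all 3 arrays detected them. A_30_P01019383 had 4.11, 4.43 and 4.52 on the WT arrays, 4.28, 4.78 and 4.94 on the KO arrays, 4.87, 5.17 and 5.33 on those of exercised WT and 4.16, 4.02 and 4.25 on the KE arrays. The lowest signal called well above background was 3.67 to 4.52 per array, so several of these values lay near or under it and the directions rest on them. The interactions were -1.07 and -1.15 with the slide as a block.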

How the results depend on the processing

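Counts of A_30_P probes at the criterion, in the order KO against WT, KE against KO, exercised WT against WT, KE against exercised WT and interaction, were 10, 37, 94, 4 and 23. They were 0, 8, 18, 0 and 1 with normexp, 58, 115, 174, 93 and 130 with no detection filter, and 1, 17, 49, 0 and 2 with detection required on all arrays. The methods' test gave 3 for KO against WT (1 higher, 2 lower), 7 for KE against KO (2 higher, 5 lower) and 15 for the interaction, and a fit on the groups compared gave 4, 19 and, in KE versus exercised WT, 7. The slide block gave 7 probes (1 higher, 6 lower) for KO against WT, 12 above and 8 below 0 for the interaction, 24 probes (4 higher, 20 lower) for KE against KO and 32 (5 higher, 27 lower) for exercised WT against WT. Scaling by the 75th percentile gave 7 in KE versus exercised WT, all higher, and split KO against WT into 4 higher and 4 lower, KE against KO into 46 and 5 and the interaction into 10 and 6. Leaving out each array gave 6 to 24, 17 to 144, 79 to 105, 4 to 12 and 17 to 35 probes. The cause of these moves was not tested.

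In KO versus WT the count was 16 without WT replicate 1, 6 without WT replicate 3, 23 without KO replicate 1 and 24 without KO replicate 2. In KE versus KO it was 18, 17 and 144 without KO replicates 1, 2 and 3, with 12, 11 and 12 lower, and 21 without KE replicate 1. In KE versus exercised WT it was 11, 7 (3 higher, 4 lower) and 12 (4 higher, 8 lower) without exercised WT replicates 1, 2 and 3 and 9, 10 and 8 without KE replicates 1, 2 and 3, and the interaction gave 35 without KO replicate 2.

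The titles number the replicates 1 to 3 in every group, and the descriptions give other numbers for some of the same samples; the titles' numbers were used. Under them, deviations of same-numbered arrays correlated at -0.19 to 0.25 over 18 pairs, so the numbers were not read as pairs. With the replicate block, 7, 33, 90, 6 and 19 probes met the criterion.

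With the slide block, 9 log2 fold changes reversed. They were -0.17 for A_30_P01018115 and -0.22 for A_30_P01020864 for KE against KO and, for exercised WT against WT, -0.07 for A_30_P01021297, -0.17 for A_30_P01023043, 0.45 for A_30_P01024198, -0.42 for A_30_P01025509 and A_30_P01027222, -0.22 for A_30_P01029029 and 0.16 for A_30_P01032874. No other alternative run reversed a named probe, and normexp left 17 of 24 short of the criterion.

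A looser detection call, signal positive and significant, gave detection of 69.3% (WT), 70.6% (KO), 73.7% (exercised WT) and 71.1% (KE), and 319 regions with both strands on all arrays. The median signal of A_30_P probes minus that of others was -0.73 with normexp and -2.17 over tested probes only. The share of A_30_P probes past 2-fold in KO replicate 3 was 3.45% with normexp, against 1.73% of other probes, and 8.57% to 8.69% with 75th percentile scaling, the authors' table or outlier spots kept.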
